A study of Mus musculus with 2 samples.

Results

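One-carbon metabolism moves single carbon units from serine to the cell's nucleotides and methyl donors, and 10 of its genes are described here in Th17 cells with and without the long non-coding RNA lncRNA-GM. The genes were chosen by symbol from the 17002 genes in the authors' deposited table: Phgdh, Psat1 and Psph of serine synthesis, Shmt1 and Mthfd1 of the cytosolic folate pathway, Shmt2, Mthfd2 and Mthfd1l of the mitochondrial folate pathway, and Mat2a and Mtr of the methionine cycle. All 10 had a row and all 10 were above the minimum of 1 FPKM in at least 1 library (fragments per kilobase of transcript, scaled by library depth; the unit was read from the values). Naive CD4+ T cells of the spleen of C57BL/6 mice, either wild type or lncRNA-GM-/-, were held in Th17-polarising culture for 3 days before their RNA was sequenced. By its title, the series asks how lncRNA-GM acts on Th17 differentiation and Foxo1. Each genotype is represented by 1 library, and the labels do not say how many animals each culture came from, so no spread between cultures could be estimated and no test was run. Every difference below is between these 2 libraries.

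The pathway starts from a glycolytic intermediate that Phgdh, Psat1 and Psph turn into serine. Serine hydroxymethyltransferases then pass a carbon of serine to tetrahydrofolate, in mitochondria through Shmt2 and in the cytosol through Shmt1. The mitochondrial enzymes release the carbon as formate, which Mthfd1 takes up in the cytosol for purines, thymidylate and the remethylation of homocysteine to methionine. Methionine in turn gives S-adenosylmethionine, the donor for methylation of DNA, RNA and histones. Activated T cells are known to induce serine synthesis and the mitochondrial folate enzymes when they begin to divide.

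The promoters of the genes at both ends of the order of ratios are shown first, since the results below turn on Mthfd1, the highest, and on Mtr and Mthfd1l, the lowest. Each runs 5′ to 3′ from 250 bases before to 50 bases after an annotated start, on GRCm38.p6 from RefSeq, with the GC box (GGGCGG or its reverse complement), a common promoter element, in capitals. The Mthfd1 window is chr12:76254982-76255281 on the plus strand, that of Mthfd1l is chr10:3972825-3973124 on the plus strand, and that of Mtr is chr13:12258064-12258363 on the minus strand.
Mthfd1: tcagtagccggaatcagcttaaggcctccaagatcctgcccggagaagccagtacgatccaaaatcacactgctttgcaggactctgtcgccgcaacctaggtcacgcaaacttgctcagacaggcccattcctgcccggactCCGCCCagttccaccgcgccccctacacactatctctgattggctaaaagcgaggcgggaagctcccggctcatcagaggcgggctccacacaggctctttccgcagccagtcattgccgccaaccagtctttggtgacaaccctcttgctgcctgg
Mthfd1l: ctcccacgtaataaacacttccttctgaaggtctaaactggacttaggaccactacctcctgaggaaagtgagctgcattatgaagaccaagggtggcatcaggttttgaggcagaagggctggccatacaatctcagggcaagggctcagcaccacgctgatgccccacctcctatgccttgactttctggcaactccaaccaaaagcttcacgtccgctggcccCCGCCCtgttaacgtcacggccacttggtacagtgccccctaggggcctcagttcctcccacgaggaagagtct
Mtr: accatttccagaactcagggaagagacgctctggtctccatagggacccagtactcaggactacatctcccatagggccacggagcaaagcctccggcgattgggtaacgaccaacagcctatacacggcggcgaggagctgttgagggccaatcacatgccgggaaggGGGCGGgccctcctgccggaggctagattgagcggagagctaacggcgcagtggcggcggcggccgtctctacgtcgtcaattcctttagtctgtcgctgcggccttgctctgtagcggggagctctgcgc
Each of these windows holds 1 GC box, whatever the direction of the gene's ratio. The GC box was found on either strand in 7 of the 11 promoters listed for the 10 genes, and in 62.3% of the 11316 promoters of all tested genes. Neither the C/EBP-ATF response element TGATGNAAT, the kind of site that Atf4 binds, nor the E-box CACGTG that Myc binds was found on either strand in the 11 windows. These letters occur in 0.460% and 10.1% of the promoters of all tested genes. Phgdh, Shmt2 and Mthfd2 had none of the 3 motifs in their window.

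Depth, estimated from the deposited p-values, was near 19.5 M fragments for wild-type and near 19.1 M for knockout cells. The cells in the cultures were not alike in their markers. Cd3e, Cd4 and the other pan-T and CD4 markers were present in both libraries with none of 5 at 1.5-fold. Of 7 Th17 markers 5 were lower in the knockout by 1.5-fold or more, against 5.19% of all tested genes. The others, Il22 (46.0 and 67.3 FPKM, log2 ratio 0.54) and Ccr6 (3.35 and 4.85 FPKM, 0.43), were higher by less than 1.5-fold. All 7 tested markers of CD8 T and NK cells were lower by that fold, with a list sum of 2703 FPKM in wild-type and 929 FPKM in knockout cells, while Ncr1 and Eomes were under 1 FPKM. All 4 tested macrophage and dendritic cell markers were at least 1.5-fold higher, against 2.71% of all tested genes, with a list sum of 32.1 and 71.4 FPKM. Most of that sum came from Cd74 (15.4 and 39.4 FPKM) and H2-Ab1 (10.6 and 21.6 FPKM). Lyz2 was near the minimum at 1.02 and 2.08 FPKM, Itgax under it at 0.83 and 0.91 FPKM, and Csf1r and Adgre1 near 0. B cell markers summed to 4.53 and 8.16 FPKM, and no erythroid marker was above 4.81 FPKM. Neutrophil and mast cell markers summed to 73.5 and 34.1 FPKM, mostly Ly6g (71.6 and 30.3 FPKM), and did not share a direction. Ly6g and Cpa3 were lower by 1.5-fold or more. S100a9 (0 and 2.23 FPKM) was higher by that fold and S100a8 (0.43 and 1.01 FPKM) by less. The part of these cells in the one-carbon values was not tested, and fewer cells of a type cannot be told apart from less RNA per cell. No level of lncRNA-GM itself was analysed here, and the genotype label therefore had no check.

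None of the 10 genes differed by as much as 1.5-fold between the libraries with 1 FPKM added to both values, and without that addition Mtr alone did. By log2 ratio (knockout over wild type, on FPKM + 1) 5 were higher and 5 lower in the knockout library. The number at least 1.5-fold higher was 0 of 10 and the number at least 1.5-fold lower was 0 of 10, against 2.71% and 5.19% of the 10998 genes with at least 1 FPKM in 1 library. At 1.3-fold the numbers were 1 higher (Mthfd1) and 1 lower (Mtr), against 6.51% and 11.0% of all tested genes. The median log2 ratio of the 10 genes was −0.04 and that of all tested genes was −0.03. Summed over the 10 genes, the level was 941 FPKM in the wild-type library and 936 FPKM in the knockout library.

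**Figure D1:**
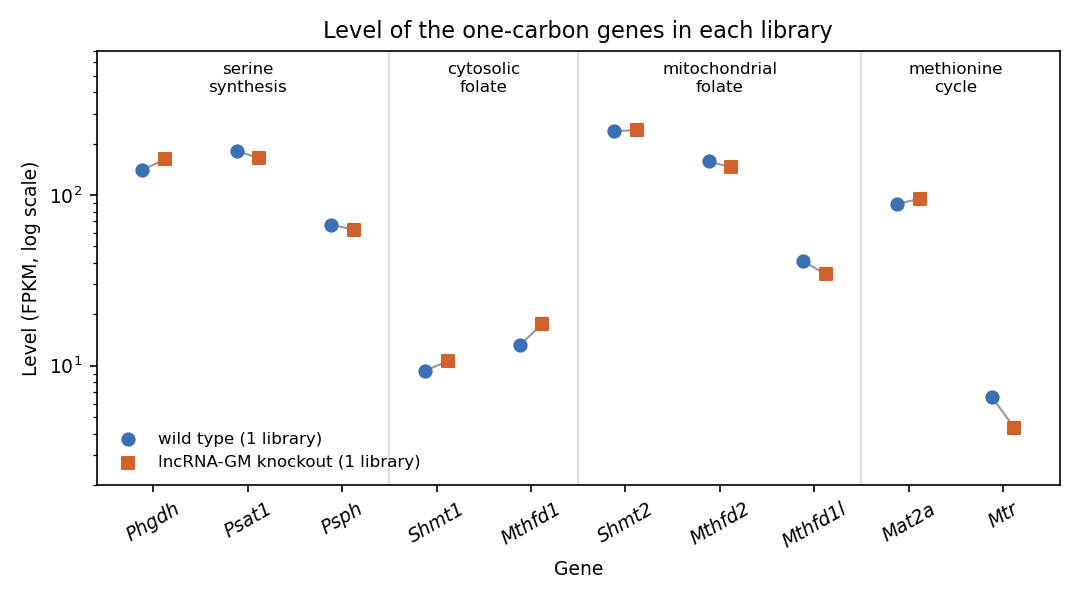
Level of each of the 10 genes in FPKM on a log axis, in the wild-type library (circles) and the knockout library (squares), 1 library each, so there are no error bars. The genes span from Mtr at 6.56 and 4.32 FPKM to Shmt2 at 237 and 240.1 FPKM, and the lines that join the libraries are short beside that span.

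The genes differed far more from each other than between the libraries. The highest, Shmt2, was 36.1 times the lowest, Mtr, in the wild-type library and 55.6 times in the knockout library. From high to low the wild-type order was Shmt2, Psat1, Mthfd2, Phgdh, Mat2a, Psph, Mthfd1l, Mthfd1, Shmt1 and Mtr. In the knockout library Phgdh and Mthfd2 exchanged places and the rest of the order was the same. Shmt2 lay at percentile 97.5 of all tested genes in the wild-type library, Psat1 at 96.7, Mthfd2 at 96.1 and Phgdh at 95.6. The cytosolic enzymes Mthfd1 and Shmt1 lay at percentiles 49.0 and 39.0, and Mtr at 29.8.

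For each gene below, the numbers of reads were solved from the authors' deposited p-value, and the interval is the 95% exact (Clopper-Pearson) counting interval of the log2 ratio of those reads. It covers counting error only and carries no pseudocount.

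Phgdh, phosphoglycerate dehydrogenase, catalyses the first step of serine synthesis and lies on chromosome 3 from 98313171 to 98339969 (GRCm38.p6, minus strand). It was at 140.0 FPKM in wild-type and 162 FPKM in knockout cells, a log2 ratio of 0.21 (interval 0.15 to 0.26) on about 5073 and 5761 reads. GENCODE holds 12 processed pseudogenes with at least 95% and up to 98.7% identity to Phgdh transcripts and none was matched to a row of the table, so reads shared between Phgdh and these copies cannot be told apart and its value is uncertain to that extent. Psat1, the phosphoserine aminotransferase of the next step, lies on chromosome 19 from 15905123 to 15925059 on the minus strand. Its level was 181 FPKM in wild-type and 165 FPKM in knockout cells, a log2 ratio of −0.13 (interval −0.18 to −0.09). Psph, the phosphatase that releases free serine, lies on chromosome 5 from 129765558 to 129787443 on the minus strand. It was at 67.1 and 62.6 FPKM, a log2 ratio of −0.10 (interval −0.19 to −0.01).

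The serine synthesis genes therefore did not share a direction: Phgdh was higher and Psat1 and Psph lower in the knockout library. Psat1 was 1.29 times the level of Phgdh in the wild type and 1.02 times in the knockout. Summed over these genes, serine synthesis stood at 388 FPKM in wild-type and 389 FPKM in knockout cells. Exons of Psph overlap those of Cct6a, a chaperonin subunit gene on the opposite strand, over 452 bases. Cct6a was at 137 and 130.2 FPKM, and since strandedness is not given in the sources used here, reads from that overlap cannot be assigned to either gene.

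Shmt2, the mitochondrial serine hydroxymethyltransferase, was the most abundant of the 10 genes and lies on chromosome 10 from 127517123 to 127522444 on the minus strand. It was at 237 FPKM in wild-type and 240.1 FPKM in knockout cells, a log2 ratio of 0.02 (interval −0.02 to 0.06) on about 10384 and 10365 reads. Mthfd2, the mitochondrial methylenetetrahydrofolate dehydrogenase and cyclohydrolase that oxidises the folate-bound carbon, lies on chromosome 6 from 83305704 to 83326011 on the minus strand. Its level was 157 FPKM in wild-type and 146 FPKM in knockout cells, a log2 ratio of −0.11 (interval −0.16 to −0.06). Mthfd1l, the mitochondrial synthetase that releases formate, lies on chromosome 10 from 3972892 to 4167081 on the plus strand. It was at 41.2 and 34.2 FPKM, a log2 ratio of −0.26 (interval −0.34 to −0.19), on about 3090 and 2525 reads. Along the mitochondrial route the first enzyme was thus nearly equal in the libraries and the last one was 16.9% lower in the knockout.

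Mthfd1, the trifunctional cytosolic enzyme that uses formate, lies on chromosome 12 from 76254406 to 76319820 on the plus strand. It was at 13.2 FPKM in wild-type and 17.5 FPKM in knockout cells, which is 32.7% higher and a log2 ratio of 0.38 (interval 0.28 to 0.54), on about 855 and 1117 reads. That ratio was the highest of the 10 and stood at percentile 93.6 of all tested genes. Shmt1, the cytosolic serine hydroxymethyltransferase, lies on chromosome 11 from 60788897 to 60811265 on the minus strand. It was at 9.36 and 10.6 FPKM, a log2 ratio of 0.17, and its interval, −0.01 to 0.38, includes 0. Exons of Shmt1 overlap those of Smcr8 on the opposite strand over 184 bases, with Smcr8 at 7.99 and 7.93 FPKM.

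Both cytosolic genes were higher in the knockout library, and the mitochondrial genes ran from slightly higher (Shmt2) to lower (Mthfd2 and Mthfd1l). The counting intervals of Mthfd1 and Mthfd1l do not overlap, and nor do those of Phgdh and Psat1 within serine synthesis. This is not particular to these pairs. Those of Shmt2 (−0.02 to 0.06) and Psat1 (−0.18 to −0.09), for example, do not overlap either, and the share of such pairs over all genes was not computed. These intervals cover counting error only. As a level in FPKM, which is per length, Mthfd1l was 3.12 times Mthfd1 in the wild type and 1.95 times in the knockout. Mthfd2 was 11.9 times Mthfd1 in the wild type and 8.30 times in the knockout. Shmt2 was 25.3 times Shmt1 in the wild type and 22.6 times in the knockout. In both libraries each mitochondrial gene was thus above its cytosolic counterpart. Mthfd2 was also 131 and 103 times its paralog Mthfd2l, which was near the minimum at 1.20 and 1.41 FPKM.

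Mat2a, the methionine adenosyltransferase that makes S-adenosylmethionine outside the liver, lies on chromosome 6 from 72432796 to 72439556 on the minus strand. It was at 88.9 FPKM in wild-type and 94.9 FPKM in knockout cells, a log2 ratio of 0.09 (interval 0.04 to 0.15). Mat2b, its regulatory subunit, was at 40.4 and 34.1 FPKM, so that Mat2a was 2.20 times Mat2b in the wild type and 2.78 times in the knockout. Mat2a has 1 processed pseudogene at 95.6% identity, not matched to a row, and the other 8 genes had no near-identical copy by the same search. Exons of Mat2a overlap Particl, a transcript of the opposite strand that was not analysed here, over 508 bases.

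Mtr, methionine synthase, which joins the folate and methionine cycles, lies on chromosome 13 from 12181331 to 12258199 on the minus strand. It was at 6.56 FPKM in wild-type and 4.32 FPKM in knockout cells, which is 34.1% lower. Its log2 ratio was −0.51, or −0.60 in the authors' deposited table, where no pseudocount was added and the difference passes 1.5-fold, and it stood at percentile 6.81 of all tested genes. The interval ran from −0.93 to −0.28 on about 201 and 130 reads, the fewest of the 10 genes. Those reads correspond to a transcript of 1.58 kb at the depth estimated here, whereas annotated Mtr transcripts run from 0.934 to 8.29 kb, and the part of transcript choice in this ratio was not tested. Mtrr, the reductase that keeps Mtr active, was at 10.1 and 9.07 FPKM, a log2 ratio of −0.14.

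**Figure D2:**
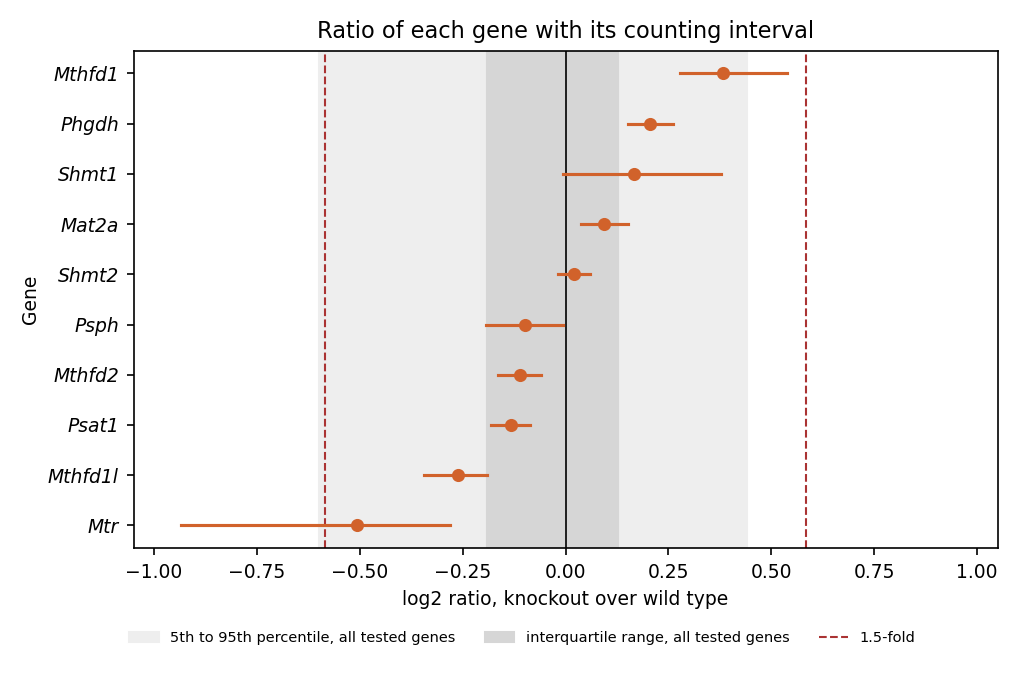
Log2 ratio of knockout over wild type for each gene (points, 1 FPKM added to both values) with the 95% counting interval of the read ratio without pseudocount (lines). Shading gives the interquartile range and the 5th to 95th percentile range of all 10998 tested genes. All points lie within the dashed 1.5-fold lines, from Mtr at −0.51 to Mthfd1 at 0.38, and the interval of Mtr crosses the lower line.

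The spread of all tested genes gives the scale for these ratios. The 5th and 95th percentiles of all log2 ratios were −0.60 and 0.44, and all 10 genes lay between them. The quartiles were −0.19 and 0.13, and 44.9% of all tested genes had log2 ratios above 0. Shmt2, Mat2a, Psph, Mthfd2 and Psat1 lay between the quartiles, Mthfd1, Phgdh and Shmt1 above the upper and Mthfd1l and Mtr below the lower quartile.

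Around the 10 genes, 9 lists covered the neighbouring reactions, carriers and regulators with 75 genes, of which 65 were tested, 9 were under 1 FPKM in both libraries and 1, Mat1a, had no row. Of the 65, the number at least 1.5-fold higher was 1 (Ahcy) and the number at least 1.5-fold lower was 3 (Mycn, Ggh and Aldh1l2), shares of the same order as the 2.71% and 5.19% of all tested genes. Their median log2 ratio was −0.02, beside −0.03 for all tested genes.

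Aldh1l2, the mitochondrial enzyme that oxidises formyl-folate to carbon dioxide, was at 7.74 FPKM in wild-type and 4.55 FPKM in knockout cells, a log2 ratio of −0.66 (interval −0.93 to −0.61). It was the lowest of 11 tested genes of the mitochondrial folate and glycine cleavage list. Of the 11, 8 had log2 ratios below 0 and 3 above, beside 44.9% above 0 of all tested genes. Sfxn1, the mitochondrial serine transporter, was the highest, at 31.2 and 37.9 FPKM (log2 ratio 0.27). The list median was −0.11, with Shmt2 the most abundant.

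In the cytosolic folate list, 4 of 6 tested genes were above 0, beside 44.9% of all tested genes, and the median was 0.13. Mthfd1 was the highest. Tyms, thymidylate synthase, was the most abundant, at 23.2 and 18.6 FPKM (log2 ratio −0.30). Its processed pseudogene Tyms-ps, with 95.6% identity over 677 aligned bases, was not matched to a row. Tyms is an S-phase gene. Among 20 genes of the cell cycle 17 had log2 ratios below 0, with a median of −0.21 and none at 1.5-fold. Among all tested genes 44.9% had log2 ratios above 0, and 2.71% were higher and 5.19% lower by 1.5-fold or more. The part of cell division in the values of Tyms was not tested.

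Among folate carriers and folate-retaining enzymes, Ggh, the gamma-glutamyl hydrolase that removes the glutamate chain from stored folates, was at 6.75 FPKM in wild-type and 2.64 FPKM in knockout cells. Its log2 ratio was −1.09 (interval −1.77 to −0.95, without pseudocount). Slc19a1, the reduced folate carrier and the most abundant of this list, ran the other way, at 11.3 and 17.3 FPKM with a log2 ratio of 0.58 (interval 0.43 to 0.80), just under 1.5-fold. Fpgs, which adds the glutamate chain that Ggh removes, was at 12.4 and 14.2 FPKM (log2 ratio 0.19).

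In the methionine cycle list, Ahcy, the S-adenosylhomocysteine hydrolase, had the highest log2 ratio of all the genes considered, 3.92, at 2.94 FPKM in wild-type and 58.7 FPKM in knockout cells. Gm4737, a copy of Ahcy at 99.7% identity over 2083 aligned bases, was at 101 FPKM in wild-type and 44.7 FPKM in knockout cells. Summed, the pair stood at 103 FPKM in each library, with a log2 ratio of −0.001, so the ratio of Ahcy alone is uncertain. Against that sum, Mat2a was at 0.859 times in the wild type and 0.918 times in the knockout. Against the row of Ahcy alone the same ratios were 30.2 and 1.62.

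**Figure D3:**
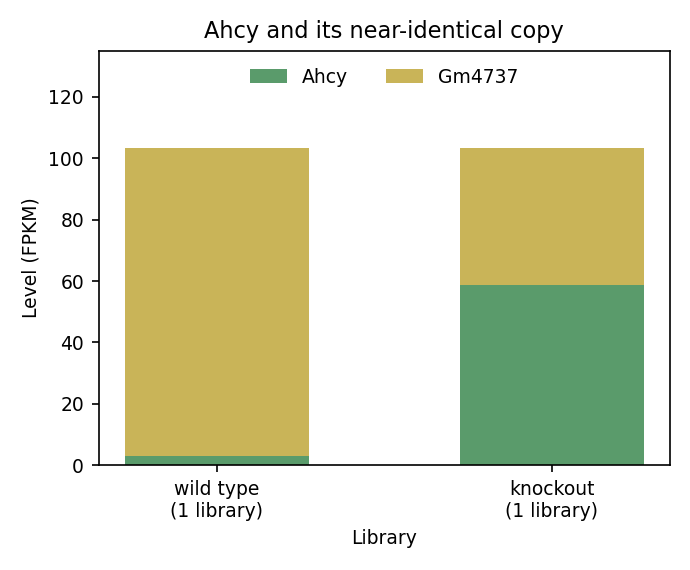
Level in FPKM of Ahcy and of its near-identical copy Gm4737, stacked, in the wild-type and the knockout library (1 library each, no error bars, axis from 0). The shares of the 2 rows differ between the libraries, while the stacks have the same height, 103 FPKM.

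The remaining lists held no gene at 1.5-fold apart from Mycn. Of 7 genes of de novo purine synthesis, which takes up formyl-folate in 2 steps, Gart was the highest at 18.7 and 25.7 FPKM (log2 ratio 0.44), Prps1 the lowest (−0.21, or −0.17 summed with its near-identical copy Prps1l3) and Paics the most abundant at 79.0 and 73.7 FPKM, with a list median of 0.08. Gart and Atic, the enzymes of those steps, had log2 ratios of 0.44 and 0.13. In transsulfuration and methionine salvage, Cth, cystathionine gamma-lyase, was both the lowest and the most abundant at 61.9 and 43.0 FPKM (log2 ratio −0.51), and Adi1 the highest (0.40), with a median of −0.07. Among 7 transporters of serine and methionine, Slc7a5 was the most abundant at 303 and 284 FPKM, Slc1a4 the lowest (−0.35) and Slc43a2 the highest (0.21), with a median of −0.09.

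Atf4, the transcription factor that is known to activate Phgdh, Psat1, Shmt2 and Mthfd2, was at 466 FPKM in wild-type and 496 FPKM in knockout cells, a log2 ratio of 0.09. The median over the 11 genes of the list that holds Atf4, the Myc family and Atf4 targets was 0.05. Myc, also an activator of serine and folate genes, had the highest log2 ratio of that list, 0.36, at 115 and 147 FPKM. Mycn, its relative, was at 14.1 FPKM in wild-type and 3.69 FPKM in knockout cells, a log2 ratio of −1.68 (interval −2.17 to −1.69, without pseudocount).

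**Figure D4:**
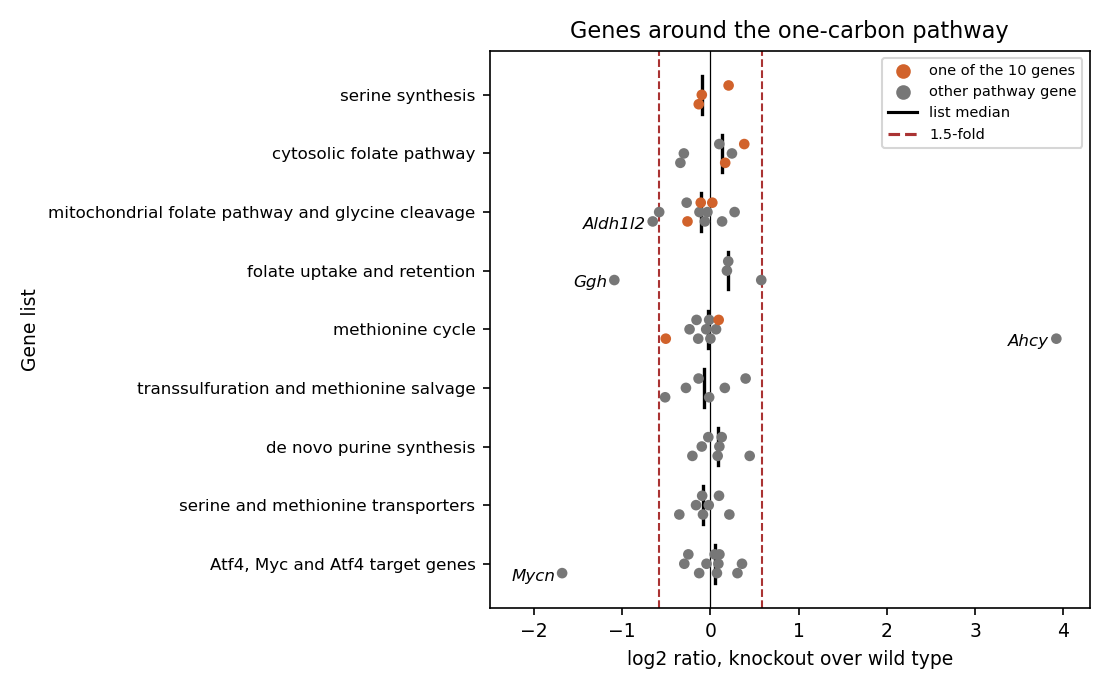
Log2 ratio of knockout over wild type for the 65 tested genes of the 9 lists, 1 point per gene, with list medians as black bars and 1.5-fold as dashed lines. Ahcy, Aldh1l2, Ggh and Mycn lie outside the dashed lines and none of the 10 genes (orange) does. The point of Ahcy, at 3.92, falls to −0.001 when its copy is added.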

How the data were processed

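Per the labels' protocols, total RNA of Th17 cells was read on the Illumina HiSeq platform. The submitters' processing notes name Bowtie2, RSEM and GRCm38.p6 and give no tool versions. The authors deposited 1 table with 2 expression columns, read here as FPKM since they sum to 517664 and 514343. The authors' deposited log2 ratio was recomputed within 0.001 for all 17002 genes with 0 set to 0.01. The authors' deposited p-value compares 1 library with 1 library by an unnamed test. The FDR column of the authors is a score here, since it exceeds 1, and was not used.

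Log2 ratios were computed on FPKM + 1 for genes that reached 1 FPKM in either library, and a gene was counted past a fold of 1.5. No test was run with 1 library per genotype. The deposited p-values of 1024 of 1067 genes at 0 in the knockout fell on whole reads within 0.02 under a Poisson comparison with 50.4% of reads in the wild type. The same formula gave the reads of other genes and a depth near 19.5 M fragments for the wild-type library, with quartiles of 18.3 and 19.7 M across 300 single-transcript genes of 1500 bases or longer. The knockout depth was near 19.1 M. Intervals assume that both libraries share 1 transcript length per gene, and are given where the reads imply a length within 1.5 times of the annotated range of transcript lengths. Reads are not independent molecules, so intervals cover counting error only. Copies were searched with BLAST 2.17.0 in GENCODE M21 (at least 95% identity over 50% of the shorter transcript and 300 bases). Coordinates and promoters came from RefSeq for GRCm38.p6. Protein sequences were not used here.

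The 10 genes and the lists were chosen with earlier results of these data known. Beside the 10 genes, the text names by rule each list gene past 1.5-fold and each list's highest, lowest and most abundant gene. A gene that this rule names is not reported here. The antisense neighbours, Amt, Atic, Fpgs, Gm4737, Mtrr, Prps1l3 and the genes of the closing section were added after their values were seen. Mat2b and Mthfd2l were named in advance for the comparison of levels only. The ratios of Psat1 to Phgdh and of Mat2a to the sum of Ahcy and Gm4737 were not planned. Alternatives were pseudocount, scaling, minimum, fold, mean, the authors' deposited ratio and, added after seeing the data, summed copies. The steps were tested on simulated data. Software was matplotlib 3.10.9, scipy 1.17.1, pandas 2.3.3, numpy 2.4.6 and Python 3.11.15.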

Additional observations from a re-analysis of the deposited data

How the results depend on the processing

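The log2 ratios of the 10 genes kept their sign and stayed within their counting half-width in all 50 combinations of gene and alternative that could move them (5 per gene). Other pseudocounts and the authors' deposited ratio, which has no pseudocount, could change the size of a ratio but not its sign. Only the scaling alternatives could have changed a sign. Summed copies could not move any of the 10, since no copy of Phgdh or Mat2a has a row, and the minimum could not either. Mtr ran from −0.60 to −0.31, the latter with a pseudocount of 5, and alone reached 1.5-fold, so that the number of the 10 genes at least 1.5-fold lower was 1 with a pseudocount of 0.1 and 1 with the authors' deposited log2 ratio. With a fold of 1.3 the numbers were 1 higher and 1 lower. Among the pathway genes, the number at least 1.5-fold higher was 2 with a pseudocount of 0.1, 2 with the median of all genes set to 0, 2 with the same total over all genes and 2 with the authors' deposited log2 ratio, where Slc19a1 joined Ahcy. In the same order of settings, 4.06%, 2.99%, 3.41% and 4.29% of all tested genes were at least 1.5-fold higher. The number of pathway genes at least 1.5-fold higher was 0 with near-identical copies summed, where the log2 ratio of Ahcy was −0.00124. The number at least 1.5-fold lower was 5 with a pseudocount of 0.1 and 5 with the authors' deposited log2 ratio. In both, Amt and Mtr joined Mycn, Ggh and Aldh1l2, and 7.66% and 7.98% of all tested genes were that much lower. With the same total over all genes the number was 4, where Amt joined, against 6.31% of all tested genes. With a pseudocount of 5 it was 2, where Aldh1l2 dropped out, against 2.07%. With a fold of 1.3 the pathway numbers were 5 higher and 6 lower, against 6.51% and 11.0% of all tested genes. Leaving out 9 values for the 10 genes that the minimum and summed copies could not change, 36 of 49 values of counts and medians stayed within 1.5 times or within 0.07 on the log2 scale, the median counting half-width of the 10 genes. Some of the 36 could not have moved either. With 0 of the 10 genes at 1.5-fold, a fold of 2 or a pseudocount of 5 could only leave those counts at 0. No paired analysis was possible because each genotype has 1 library. For the same reason no replicate could be left out, and depth limits Mtr and Shmt1 most.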

Other observations

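Glycine and serine are also used outside the folate pathway, and the authors' deposited KEGG annotation lists 39 genes of glycine, serine and threonine metabolism, 5 of them among the 10 genes above. Of the 24 tested, 0 were higher and 3 lower in the knockout library by 1.5-fold or more, against 2.71% and 5.19% of all tested genes, and the median log2 ratio was −0.12. The lower genes, named after their values were seen, were Gatm, Aldh7a1 and Pipox. Gatm, which uses glycine in the first step of creatine synthesis, was at 22.1 FPKM in wild-type and 11.1 FPKM in knockout cells, a log2 ratio of −0.93 (interval −1.15 to −0.84). Aldh7a1, an aldehyde dehydrogenase of lysine and choline breakdown, was at 8.77 and 5.26 FPKM, a log2 ratio of −0.64 (interval −0.94 to −0.53). Pipox, the peroxisomal enzyme that oxidises sarcosine and pipecolic acid, was at 8.87 and 5.50 FPKM, a log2 ratio of −0.60 (interval −0.95 to −0.43). Without the 10 genes, 19 tested genes of this annotation remained, of which 14 had log2 ratios below 0 and 5 above, with a median of −0.22. Among all tested genes 44.9% had log2 ratios above 0, and the median was −0.03.

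The deposited annotation of the one carbon pool by folate lists 20 genes, of which 17 were tested. Of these 8 had log2 ratios above 0 and 9 below, beside 44.9% above 0 of all tested genes, with a median of −0.06. Aldh1l2 was the only gene at 1.5-fold, against 5.19% of all tested genes at least 1.5-fold lower.

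The deposited annotation of cysteine and methionine metabolism lists 46 genes, Mat2a and Mtr among them. Of the 37 tested, 21 had log2 ratios above 0 and 16 below, beside 44.9% above 0 of all tested genes, with a median of 0.03. By 1.5-fold or more 2 genes were higher and 2 lower, against 2.71% and 5.19% of all tested genes. The higher genes were Ldhb and Ahcy, and the lower genes were Amd2 and Gm4737, the near-identical copy of Ahcy. Summed, Ahcy and Gm4737 had a log2 ratio of −0.001. Ldhb, a subunit of lactate dehydrogenase, was at 7.09 FPKM in wild-type and 16.04 FPKM in knockout cells, a log2 ratio of 1.07 (interval 0.92 to 1.43). Gm5514, a processed pseudogene with 98.0% identity to Ldhb over 1002 aligned bases, was not matched to a row. The value of Ldhb is uncertain to that extent. Amd2, which like Amd1 encodes S-adenosylmethionine decarboxylase of polyamine synthesis, was at 2.52 and 0.11 FPKM, a log2 ratio of −1.67. It shares 99.6% identity over 3202 aligned bases with Amd1, and summed with Amd1 it was at 40.2 and 33.7 FPKM, a log2 ratio of −0.25, so the ratio of Amd2 alone is uncertain.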
